A study of Mus musculus with 8 samples.

Results

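ICC-DMP and ICC-MY are 2 anatomical classes of interstitial cells of Cajal (ICC) of the gut wall, and this comparison asked how their transcripts differ from each other. The ICC-DMP class lies in the deep muscular plexus of the small intestine, in close contact with motor nerve endings, and the ICC-MY class lies around the myenteric plexus and paces the muscle. The members were chosen by sample title: 3 ICC-DMP and 3 ICC-MY samples, 6 of the 8 arrays in the series. The other 2 arrays, of tunica muscularis tissue, served only to choose the probe set of each gene and in 1 alternative fit. All samples came from BALB/c mice, 6 to 9 days old, and from their small intestine, with no treatment named, and the labels give no genotype beyond the strain. No source used here says how the cells were sorted, which sex the mice had or how many animals stand behind a sample. Titles number the samples as biological replicates without tying them to separate animals, so a p-value measures a difference against the spread between these samples, which may be partly technical.

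ICC depend on the receptor tyrosine kinase Kit. In pacemaker cells, calcium released from internal stores opens the chloride channel encoded by Ano1, and T-type calcium channels help the resulting slow wave to spread. In the neurally coupled class, receptors for nitric oxide, acetylcholine, tachykinins and peptides pass motor nerve signals to the muscle through gap junctions. Both classes arise from Kit-positive mesenchymal precursors that can also give smooth muscle, and bone morphogenetic protein (BMP), Wnt, Hedgehog and platelet-derived growth factor signals pattern that mesenchyme.

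Levels are log2 values per probe set, so 1 unit is a doubling, and each difference is ICC-DMP minus ICC-MY. A gene was called at an adjusted p under 0.05 in limma's moderated test without pairing of samples, with the Benjamini-Hochberg adjustment over all 18193 genes measured. Array medians over probe sets were close to one another, and arrays correlated at 0.9901 to 0.9952 over genes within ICC-DMP, 0.9806 to 0.9894 within ICC-MY and 0.9471 to 0.9609 between the classes. ICC-MY replicate 1 stood apart, with a narrower range of values (SD 1.98 over probe sets, against 2.22 to 2.27 on the other 5 arrays) and a median difference of -1.03 from the mean of the other ICC-MY arrays among genes at a mean level of 10 to 12. Actin control probes near the 3' end read above those near the 5' end by 4.66 and 4.28 in replicate 3 of ICC-DMP and of ICC-MY, and by 2.92 to 3.17 in the other 4 samples; this gap grows as RNA gets shorter, and each class held 1 such sample. Whatever call was lost when 1 of the 6 arrays was left out is named at the end of its paragraph with those arrays. The counts of a gene list, towards ICC-DMP and then towards ICC-MY, follow there for each array whose omission moved either by over 1.5 times, and for the fit with the replicate number as a block.

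The 2 classes differed widely. Of 18193 genes, 1763 were called (9.69%): 1124 higher in ICC-DMP (6.18%) and 639 higher in ICC-MY (3.51%). The difference was at least 2-fold for 830 and 443 of them and at least 8-fold for 111 and 50. The arrays of the classes did not overlap for any called gene; over all genes they did not overlap for 13.9% with ICC-DMP above and 11.7% with ICC-MY above. The split between directions rested on ICC-MY replicate 1: without it 1228 genes were higher in ICC-DMP (6.75%) and 1402 in ICC-MY (7.71%), and ICC-DMP accounted for 46.7% of calls in place of 63.8%. Quantile normalization gave 1331 and 1315 genes, an ICC-DMP share of 50.3%, and down-weighting of noisy arrays gave 1423 and 1334, a share of 51.6%. With the replicate number as a block the counts were 1505 (8.27%) and 924 (5.08%). Leaving out ICC-DMP replicate 1 or 2 left 703 and 719 genes higher in ICC-DMP, and leaving out ICC-DMP replicate 1, 2 or 3 left 330, 336 and 403 higher in ICC-MY. No gene called in 1 direction was called in the other under an alternative fitted gene by gene. With every probe set counted, 2 of the called genes, Mbp and Syne1, had another probe set called the opposite way. The median difference over all genes was -0.019. It and the shares called over all genes are the background for the list counts below. Some lists lay near the 9.69%: 9.09% of annexin genes, 10.5% of fibroblast markers and 11.5% of sodium, chloride and pacemaker channel genes were called. Lost without 1 array was the call of Mbp (without ICC-DMP replicate 1, 2 or 3 or ICC-MY replicate 2 or 3, adjusted p up to 0.16).

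**Figure D1:**
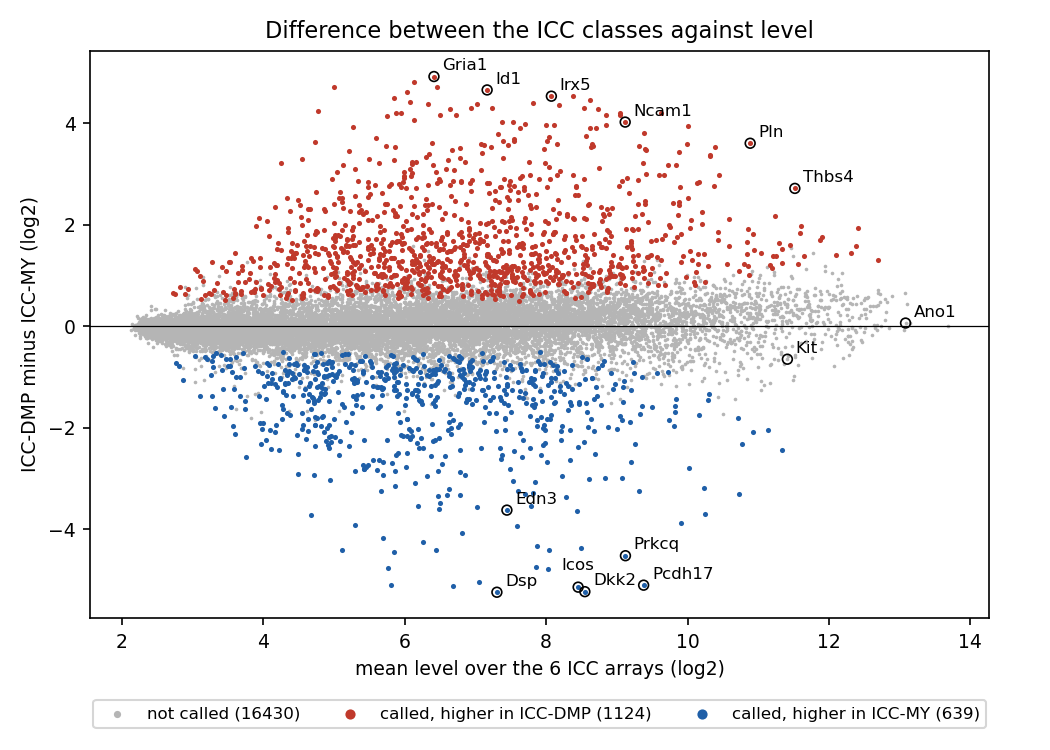
Each point is 1 of 18193 genes, with its mean log2 level over the 6 ICC arrays on the x axis and the log2 difference, ICC-DMP minus ICC-MY, on the y axis; colours mark the 1124 genes called higher in ICC-DMP, the 639 called higher in ICC-MY and the rest, and circles mark 14 named genes. Gria1 lies at 4.92 and Dsp at -5.24, while Kit and Ano1 lie among the genes not called.

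Markers shared by all ICC were high in both classes. Kit read 11.07, 11.34 and 10.85 on the ICC-DMP arrays and 10.81, 12.42 and 11.99 on the ICC-MY arrays, so the arrays overlapped; the difference was -0.65, SE 0.39, adjusted p = 0.449. Ano1 read 12.92, 13.20 and 13.22 on the ICC-DMP arrays and 12.20, 13.55 and 13.41 on the ICC-MY arrays, again overlapping, with a difference of 0.062, SE 0.35, adjusted p = 0.957. Without ICC-MY replicate 1 the Ano1 difference was -0.37 and the Kit difference -1.11 (adjusted p = 0.00851), the latter then called. A dimmer Kit probe set was lower in ICC-DMP (-1.85, SE 0.23, adjusted p = 0.00285), so the probe sets of Kit disagree on whether the classes differ. Gja1, which encodes the gap junction protein connexin 43, was not called in its brightest probe set (-0.17, adjusted p = 0.891), while 1 of 5 dimmer ones was lower in ICC-DMP (-2.49, SE 0.38, adjusted p = 0.00765).

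Of 10 measured genes known as ICC markers, 5 were called higher in ICC-MY and 1 in ICC-DMP, and the list is not independent evidence, since some members were described from profiles of such cells. Prkcq, which encodes protein kinase C theta, read 7.12, 7.18 and 6.29 on the ICC-DMP arrays and 10.61, 12.04 and 11.50 on the ICC-MY arrays. The difference was -4.52, SE 0.39, adjusted p = 0.00043, a 22.9-fold higher level in ICC-MY, and the arrays were far apart. Edn3, which encodes the ligand endothelin 3, read 5.94, 5.91 and 5.05 on the ICC-DMP arrays and 8.56, 9.999 and 9.20 on the ICC-MY arrays (-3.62, SE 0.39, adjusted p = 0.00116). Cacna1h, the T-type calcium channel gene, differed by -3.33, SE 0.36, adjusted p = 0.00107, Slc12a2, which encodes the sodium-potassium-chloride cotransporter NKCC1, by -2.44, SE 0.38, adjusted p = 0.00649, and Cd44, the hyaluronan receptor gene, by -1.76, SE 0.27, adjusted p = 0.00639. Dimmer probe sets of Slc12a2 differed more, by -4.18 (SE 0.21, adjusted p = 7.4e-05) and -4.32 (SE 0.35, adjusted p = 0.000447). Thbs4, a thrombospondin of the matrix, was higher in ICC-DMP, at 2.71, SE 0.29, adjusted p = 0.00104. Elovl6, a fatty acid elongase gene, was not called (-1.27, adjusted p = 0.0681), but it was without ICC-MY replicate 1 (-1.70, adjusted p = 0.000155). In all, 7 of the 10 were called higher in ICC-MY without that array, and 6 with the replicate block.

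The largest difference towards ICC-DMP was that of Gria1, which encodes a subunit of AMPA-type glutamate receptors. Gria1 read 8.83, 8.87 and 8.91 on the ICC-DMP arrays and 4.07, 3.59 and 4.20 on the ICC-MY arrays, and the difference was 4.92, SE 0.18, adjusted p = 2.34e-05, 30.2-fold. Irx5 read 10.15, 10.28 and 10.59 on the ICC-DMP arrays and 5.42, 5.73 and 6.28 on the ICC-MY arrays (4.53, SE 0.24, adjusted p = 6.27e-05), and Irx3, its neighbour in the Iroquois homeobox cluster, 10.69, 10.72 and 10.52 on the ICC-DMP arrays and 5.81, 6.20 and 6.35 on the ICC-MY arrays (4.53, SE 0.17, adjusted p = 2.34e-05). Every ICC-DMP array lay more than 3 log2 units above every ICC-MY array for these genes. Ncam1, the neural cell adhesion molecule gene, read 10.97, 11.23 and 11.18 on the ICC-DMP arrays and 6.86, 7.05 and 7.42 on the ICC-MY arrays, a difference of 4.02, SE 0.18, adjusted p = 3.44e-05. Gria1, Irx5 and Ncam1 were singled out from earlier results of these data and are no independent evidence.

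The other genes among the 20 largest differences towards ICC-DMP fell in a few groups. Bmpr1b (4.71), Id1 (4.65), Id3 (4.27), Grem1 (4.46) and Bmper (4.50) belong to or bind the BMP pathway, and Wif1 (4.72) encodes a secreted Wnt inhibitor. Snap91 (4.62) encodes a clathrin assembly protein of synaptic vesicle recycling, Slc26a7 (4.81) an anion transporter, Kcnq5 (4.30) a potassium channel, and Gem (4.30) a small GTPase that restrains calcium channels. Met (4.37) encodes the hepatocyte growth factor receptor, Gcnt2 (4.41) a glycan-branching enzyme and Col6a4 (4.39) a collagen VI chain. Ankrd63 (4.37), Fam184b (4.36), Clmn (4.30) and Slc35f1 (4.27) completed the group. The adjusted p of these genes ran up to 0.000186.

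Towards ICC-MY the largest difference was that of Dsp, which encodes desmoplakin, the protein that ties desmosomes to intermediate filaments. Dsp read 4.58, 5.10 and 4.37 on the ICC-DMP arrays and 9.22, 10.39 and 10.17 on the ICC-MY arrays, a difference of -5.24, SE 0.33, adjusted p = 0.000116. Dkk2, the gene of a secreted Wnt modulator, read 6.41, 6.25 and 5.14 on the ICC-DMP arrays and 10.27, 11.61 and 11.61 on the ICC-MY arrays (-5.23, SE 0.46, adjusted p = 0.000443). Icos, whose product co-stimulates T cells, read 6.03, 5.99 and 5.63 on the ICC-DMP arrays and 10.35, 11.42 and 11.30 on the ICC-MY arrays (-5.14, SE 0.29, adjusted p = 7.42e-05). ICC-MY replicate 1 was the lowest ICC-MY array for all 3 genes and still lay more than 3 units above the highest ICC-DMP array. Dsp, Icos and Prkcq were also singled out from earlier results of these data.

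Several of the remaining leaders towards ICC-MY encode surface proteins. Pcdh17 (-5.10), a protocadherin gene, and Vcam1 (-5.03), a ligand of integrins, encode adhesion molecules, and Kcnk3 (-4.33) encodes a 2-pore-domain potassium channel that sets resting potential. Atp2b2 (-4.17) encodes a calcium pump of the plasma membrane and Ramp3 (-4.07) a partner of calcitonin-family receptors. Sgpp2 (-5.12) encodes a sphingosine phosphate phosphatase, Ampd3 (-4.77) an AMP deaminase, Nox4 (-4.41) an NADPH oxidase, Osr1 (-4.41) a zinc finger transcription factor and Rit2 (-4.26) a neuronal Ras-like GTPase. The others were Tafa2 (-5.10), Ctxn3 (-4.78), Tmem178 (-4.74), Col26a1 (-4.44), Ms4a4b (-4.41) and Trnp1 (-4.36). The adjusted p of the 20 genes ran up to 0.000582, and all 40 leading genes in both directions kept their calls under every alternative that was fitted gene by gene. Of these 40, 22 had other probe sets, and for 10 of them no other probe set was called the same way: Slc26a7, Snap91, Col6a4, Met, Fam184b, Slc35f1, Col26a1, Ms4a4b, Trnp1 and Kcnk3.

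**Figure D2:**
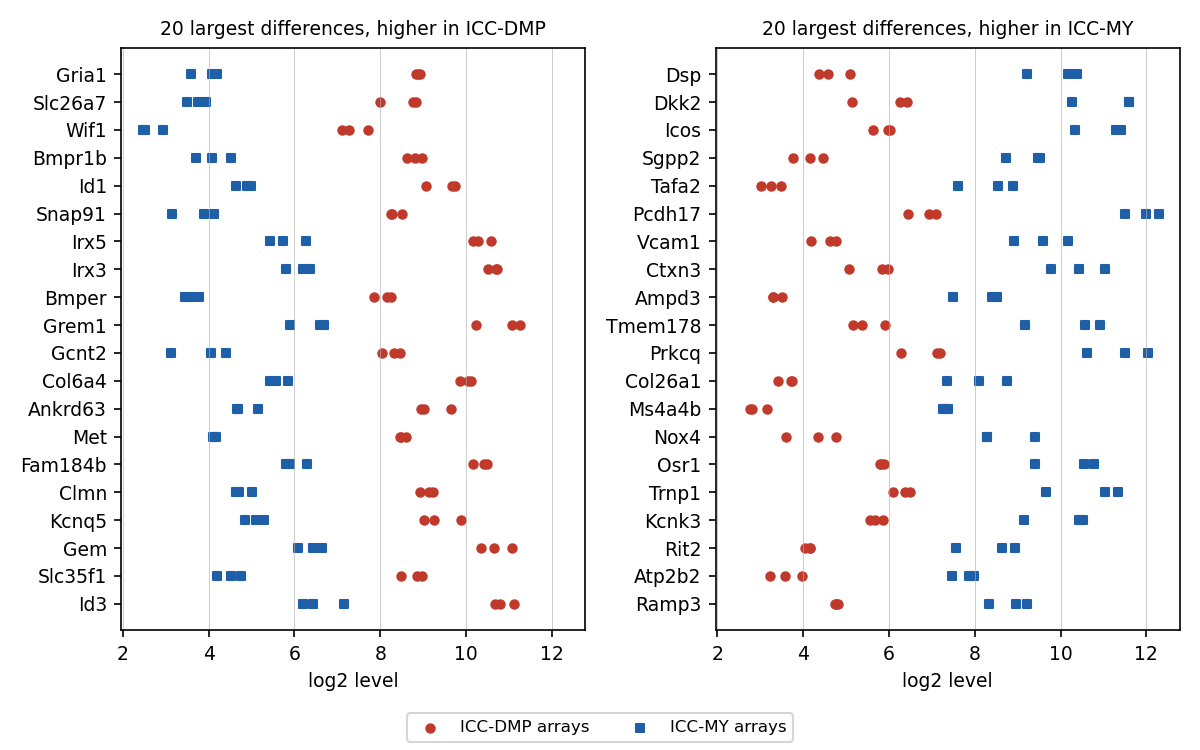
The log2 level (x axis) on each of the 6 arrays for the 20 genes with the largest differences in each direction, ICC-DMP arrays as red circles and ICC-MY arrays as blue squares. In every line the 3 circles and the 3 squares are apart, from Gria1 (4.92) to Id3 (4.27) on the left and from Dsp (-5.24) to Ramp3 (-4.07) on the right.

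BMP signals bind paired receptors, activate SMAD proteins and switch on Id genes, and secreted antagonists hold the ligands back. Of 48 measured genes of BMP and transforming growth factor beta signalling, 16 were higher in ICC-DMP and 5 in ICC-MY (median 0.11). The receptor gene Bmpr1b read 8.82, 8.98 and 8.63 on the ICC-DMP arrays and 4.07, 3.70 and 4.53 on the ICC-MY arrays (4.71, SE 0.23, adjusted p = 4.67e-05), while Bmpr1a (0.81, adjusted p = 0.165) and Bmpr2 (0.98, adjusted p = 0.158) were not called. Among ligands, Bmp5 was higher in ICC-DMP (3.54, SE 0.22, adjusted p = 0.0001), Bmp7 was lower (-1.70, SE 0.19, adjusted p = 0.00122), and Bmp2 was not called (1.04, adjusted p = 0.0551). Target genes were far higher in ICC-DMP. Id1, an inhibitor of helix-loop-helix factors and a direct BMP target, read 9.74, 9.68 and 9.06 on the ICC-DMP arrays and 4.65, 4.98 and 4.89 on the ICC-MY arrays. Its difference was 4.65, SE 0.21, adjusted p = 3.92e-05, beside Id3 (4.27, SE 0.26), Id2 (3.35, SE 0.20) and Id4 (1.80, SE 0.36). The inhibitory SMAD genes, which are induced by the pathway they restrain, were also higher, Smad6 at 2.79, SE 0.36, adjusted p = 0.00252 and Smad7 at 1.37, SE 0.18, adjusted p = 0.00255, as was the pseudoreceptor gene Bambi at 2.71, SE 0.24, adjusted p = 0.000435. The signal-transducing Smad1 (-0.38), Smad5 (-0.19) and Smad9 (0.25) were not called (adjusted p = 0.309, 0.757 and 0.348). The call that 1 array could end was that of Id4 (without ICC-DMP replicate 1 or 2 or ICC-MY replicate 3, adjusted p up to 0.0964). For the BMP, TGF-beta, Id and SMAD list, counts were 13 and 2 (ICC-DMP replicate 1 left out), 14 and 2 (ICC-DMP replicate 2 left out), 15 and 3 (ICC-DMP replicate 3 or ICC-MY replicate 2 left out), 16 and 8 (ICC-MY replicate 1 left out) and 13 and 3 (ICC-MY replicate 3 left out).

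Of the secreted BMP antagonist genes named here, Grem1, Chrdl1 and Nog were higher in ICC-DMP and only Nbl1 in ICC-MY. Grem1, the gene of gremlin 1, read 11.07, 11.25 and 10.22 on the ICC-DMP arrays and 5.89, 6.59 and 6.69 on the ICC-MY arrays, a difference of 4.46, SE 0.32, adjusted p = 0.000186. Chrdl1, which encodes a chordin-like antagonist, differed by 3.80, SE 0.18, adjusted p = 4.43e-05, and Nog, the gene of noggin, by 2.85, SE 0.18, adjusted p = 0.000118. ICC-MY held the higher level of Nbl1, another antagonist gene (-1.52, SE 0.35, adjusted p = 0.0373), and of Ltbp1, which encodes a binding protein of latent transforming growth factor beta (-1.82, SE 0.25, adjusted p = 0.00325). The arrays of the classes did not overlap for Bmpr1b, Id1, Grem1 or Chrdl1. Leaving out 1 array ended the call of Nbl1 (without ICC-DMP replicate 1, 2 or 3 or ICC-MY replicate 2 or 3, adjusted p up to 0.156).

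Of 48 Wnt pathway genes, 14 were higher in ICC-DMP and 3 in ICC-MY (median 0.093). Each class had its own secreted modulators. Wif1 read 7.10, 7.28 and 7.71 on the ICC-DMP arrays and 2.46, 2.53 and 2.94 on the ICC-MY arrays (4.72, SE 0.21, adjusted p = 3.44e-05), and Sfrp1, the gene of another Wnt-binding inhibitor, differed by 3.47, SE 0.22, adjusted p = 0.000116. Dkk2 was on the other side, as given above. The R-spondin genes, whose products amplify Wnt signals, divided as well: Rspo3 was higher in ICC-DMP (4.02, SE 0.32, adjusted p = 0.000302) and Rspo2 in ICC-MY (-3.60, SE 0.24, adjusted p = 0.000136). Rspo3 read 9.51, 9.48 and 9.64 on the ICC-DMP arrays and 4.85, 5.48 and 6.25 on the ICC-MY arrays, and Rspo2 read 4.57, 4.89 and 4.62 on the ICC-DMP arrays and 7.77, 8.63 and 8.47 on the ICC-MY arrays. Ligand genes Wnt9a (3.31, SE 0.19, adjusted p = 7.42e-05) and Wnt5a (1.60, SE 0.20, adjusted p = 0.00214), the Wnt5a receptor genes Ror1 (2.08, SE 0.29, adjusted p = 0.004) and Ror2 (1.95, SE 0.29, adjusted p = 0.00511), and the nuclear effector gene Tcf7l2 (2.63, SE 0.20, adjusted p = 0.000214) were higher in ICC-DMP. Among receptors, Fzd6 (1.22) and Fzd7 (1.34) were higher in ICC-DMP and Fzd4 (-1.26) in ICC-MY. The feedback gene Nkd1 was higher in ICC-DMP (3.65, SE 0.39, adjusted p = 0.000998), whereas Axin2, a feedback target used as a pathway readout, was not called (-0.47, adjusted p = 0.186).

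**Figure D3:**
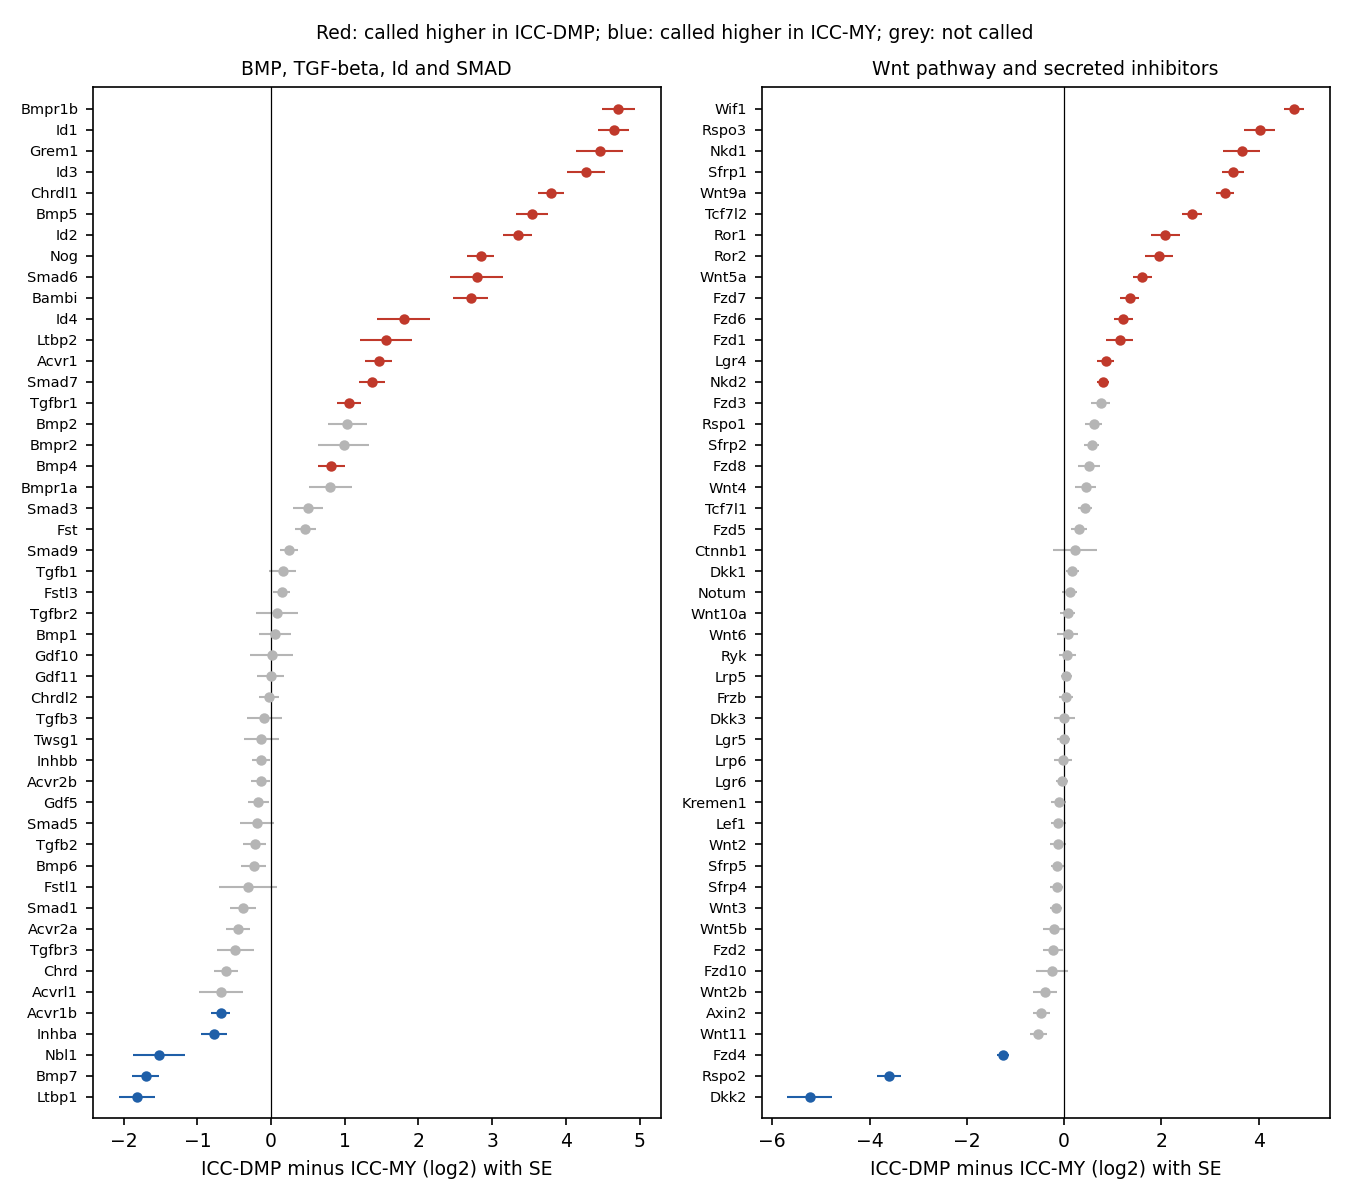
Log2 difference, ICC-DMP minus ICC-MY, with its standard error from the fit (x axis) for every measured gene of the BMP and transforming growth factor beta list (left, 48 genes) and of the Wnt list (right, 48 genes), n = 3 arrays per class. Red marks genes called higher in ICC-DMP (16 and 14), blue those called higher in ICC-MY (5 and 3) and grey the others.

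Hedgehog signals from the gut epithelium to the mesenchyme are read out by Ptch1 and the Gli genes. Of 15 Hedgehog genes, 3 were higher in ICC-DMP and 0 in ICC-MY: the receptor and target gene Ptch1 (1.81, SE 0.28, adjusted p = 0.00604), the effector gene Gli2 (1.54, SE 0.17, adjusted p = 0.00137) and the co-receptor gene Gas1 (1.69, SE 0.19, adjusted p = 0.00125). Ptch1 read 10.51, 10.98 and 10.94 on the ICC-DMP arrays and 8.40, 9.41 and 9.17 on the ICC-MY arrays, without overlap. Gli1, a direct target, was not called (0.48, adjusted p = 0.249). Of 24 Notch pathway genes, 4 were higher in ICC-DMP, led by the target gene Hey1 (3.50, SE 0.24, adjusted p = 0.000155), and 1, the receptor gene Notch3 (-1.40, SE 0.19, adjusted p = 0.00377), in ICC-MY. For the Hedgehog pathway list, counts were 4 and 2 (ICC-MY replicate 1 left out). For the Notch pathway list, counts were 1 and 1 (ICC-DMP replicate 1 or 3 left out), 2 and 1 (ICC-DMP replicate 2 left out), 4 and 3 (ICC-MY replicate 1 left out), 1 and 2 (ICC-MY replicate 3 left out) and 3 and 2 (with the block).

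Of 40 growth factor and receptor genes of the platelet-derived, vascular and fibroblast families, 12 were higher in ICC-DMP and 4 in ICC-MY (median -0.009). Ligand genes Pdgfc (3.59, SE 0.18, adjusted p = 5.6e-05), Pdgfa (2.91, SE 0.20, adjusted p = 0.00016), Pdgfd (2.24), Vegfc (3.34, SE 0.17, adjusted p = 5.96e-05) and Fgf1 (2.64) were among them, and so were the receptor genes Fgfr3 (3.51, SE 0.21, adjusted p = 9.3e-05), Fgfr2 (1.92) and Pdgfra (2.10, SE 0.29, adjusted p = 0.00355). Pdgfra read 11.15, 11.35 and 10.78 on the ICC-DMP arrays and 8.39, 9.19 and 9.41 on the ICC-MY arrays. The related receptor gene Pdgfrb went the other way, reading 7.20, 6.82 and 7.61 on the ICC-DMP arrays and 8.16, 8.55 and 9.35 on the ICC-MY arrays (-1.48, SE 0.33, adjusted p = 0.0323). Met read 8.49, 8.59 and 8.46 on the ICC-DMP arrays and 4.14, 4.11 and 4.17 on the ICC-MY arrays, and Hgf, the gene of its ligand, was also higher in ICC-DMP (1.26, SE 0.17, adjusted p = 0.00355). Fgf12, which encodes an intracellular partner of sodium channels, was higher in ICC-MY (-2.33, SE 0.18, adjusted p = 0.000232). The call that rested on 1 array was that of Pdgfrb (without ICC-DMP replicate 1 or 2 or ICC-MY replicate 2 or 3, adjusted p up to 0.135). For the PDGF, VEGF and FGF ligands and receptors list, counts were 10 and 1 (ICC-DMP replicate 1 left out), 11 and 1 (ICC-DMP replicate 2 left out), 11 and 2 (ICC-DMP replicate 3 left out) and 12 and 1 (ICC-MY replicate 2 left out).

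Of 18 insulin-like growth factor genes, 3 were higher in ICC-DMP and 3 in ICC-MY. Igf2, a growth factor gene of fetal and neonatal tissue, was higher in ICC-MY (-3.01, SE 0.44, adjusted p = 0.0047), and so was its clearance receptor gene Igf2r (-1.04, SE 0.18, adjusted p = 0.00967). Igfbp5, a binding protein gene, was higher in ICC-DMP (2.45, SE 0.25, adjusted p = 0.000933). Of 21 genes of MAP kinase feedback and ETS factors, which act downstream of Kit, 6 were higher in ICC-DMP and 4 in ICC-MY. The phosphatase gene Dusp4 was higher in ICC-DMP (3.09, SE 0.38, adjusted p = 0.00214), and the feedback inhibitor genes Spry1 (-2.98, SE 0.28, adjusted p = 0.00055) and Spry2 (-1.20, SE 0.17, adjusted p = 0.004) were higher in ICC-MY. For the insulin-like growth factor genes list, counts were 1 and 2 (ICC-DMP replicate 1 or 2 left out). For the MAPK feedback and ETS factors list, counts were 3 and 4 (ICC-DMP replicate 1 left out).

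Contractile genes of smooth muscle were higher in ICC-DMP almost throughout. Of 31 measured, 26 were higher in ICC-DMP and 1, the integrin gene Itga8, in ICC-MY (-2.29, SE 0.26, adjusted p = 0.00146); the median difference was 1.68, beside -0.019 over all genes. Myh11, the smooth muscle myosin heavy chain gene, read 10.90, 11.31 and 10.70 on the ICC-DMP arrays and 7.44, 8.20 and 7.65 on the ICC-MY arrays (3.21, SE 0.24, adjusted p = 0.000228). Pln, whose product phospholamban restrains the calcium pump of the sarcoplasmic reticulum, read 12.53, 12.94 and 12.59 on the ICC-DMP arrays and 8.93, 9.28 and 9.05 on the ICC-MY arrays (3.60, SE 0.17, adjusted p = 4.43e-05). Actg2, the enteric smooth muscle actin gene, differed by 3.38, SE 0.27, adjusted p = 0.0003, and Myocd, the coactivator that switches on the smooth muscle programme through serum response factor (SRF), by 3.24, SE 0.21, adjusted p = 0.000119. Cnn1, the calponin gene, read 9.50, 9.60 and 9.42 on the ICC-DMP arrays and 6.32, 6.89 and 6.62 on the ICC-MY arrays, with no overlap. Not called were Des (0.51, adjusted p = 0.457), the muscle intermediate filament gene, Cald1 (0.41), Actn1 (0.15) and Srf itself (1.002, adjusted p = 0.0892). The mean level of the whole list ran from 9.58 to 9.73 on the ICC-DMP arrays and from 7.50 to 8.13 on the ICC-MY arrays. These genes also define smooth muscle cells, and the share of such cells in each sample was not tested; in bulk RNA, fewer cells of a type and less RNA per cell cannot be told apart. Without ICC-MY replicate 1, 26 were higher in ICC-DMP and 1 in ICC-MY, with a median of 1.455. Dropping any other array lowered the count higher in ICC-DMP. It fell to 18 when ICC-DMP replicate 1, 2 or 3 was dropped. Dropping replicate 2 of ICC-MY gave 21, and dropping replicate 3 of that class gave 23. The count higher in ICC-MY stayed at 1.

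Immediate early genes, which respond within minutes to growth factors, stress and tissue dissociation, were higher in ICC-DMP for 23 of 32 members and in ICC-MY for 0 (median 1.59). Nr4a2, an orphan nuclear receptor gene, read 9.42, 9.34 and 9.03 on the ICC-DMP arrays and 6.64, 6.63 and 5.60 on the ICC-MY arrays (2.97, SE 0.29, adjusted p = 0.000736). Klf2 differed by 2.90, SE 0.22, adjusted p = 0.000221 and Ccn1, a matrix gene induced by stretch and by SRF, by 2.84, SE 0.21, adjusted p = 0.000199. Fosb (2.21), Atf3 (2.05) and Btg2 (2.46) were called as well, whereas the prototypes Fos (0.65, adjusted p = 0.465) and Egr1 (0.94, adjusted p = 0.138) were not. Of 22 heat shock chaperone genes, 7 were higher in ICC-DMP and 0 in ICC-MY, led by Cryab (3.11, SE 0.18, adjusted p = 7.47e-05), Hspa2 (2.14, SE 0.16, adjusted p = 0.000194) and Hspb1 (1.93, SE 0.21, adjusted p = 0.00104). Jun, which encodes a subunit of the activator protein AP-1, read 11.56, 11.76 and 11.62 on the ICC-DMP arrays and 9.16, 10.46 and 8.99 on the ICC-MY arrays (2.11, SE 0.37, adjusted p = 0.0108), without overlap. With 1 array left out, the call was lost for Jun (without ICC-DMP replicate 1 or 2, adjusted p up to 0.0576). For the immediate early and dissociation response list, counts were 15 and 0 (ICC-DMP replicate 1 left out) and 14 and 0 (ICC-DMP replicate 2 left out). For the heat shock chaperones list, counts were 4 and 0 (ICC-DMP replicate 2 or 3 or ICC-MY replicate 3 left out), 11 and 0 (ICC-MY replicate 2 left out) and 12 and 0 (with the block).

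Promoters of these 2 lists were searched for the binding motif of SRF, the CArG box, and for the activator protein motif TGANTCA and the cyclic AMP element TGACGTCA. Each is its own reverse complement as searched, so both strands were covered, and none of the 3 holds another. The sequences are RefSeq's, build GRCm38.p6, from 250 bases before to 50 after each annotated start, and 14368 of the 18193 genes had at least 1; a gene counts as holding a motif when any of its promoters does. A CArG box stood in 3 of the 21 contractile genes with a promoter that were higher in ICC-DMP (14.3%), in 2 of 22 such immediate early genes (9.09%), in 4.16% of all genes higher in ICC-DMP, in 2.26% of those higher in ICC-MY, in 1.59% of all genes with a promoter and in 1.63% of all 32851 promoters. The cyclic AMP element stood in 4 of the 22 immediate early genes (Btg2, Dusp1, Maff and Ppp1r15a; 18.2%), in 2.94% of all genes with a promoter, in 2.77% of genes higher in ICC-DMP, in 2.06% of those higher in ICC-MY and in 1.79% of all promoters. TGANTCA stood in 5.66% of genes higher in ICC-DMP, 8.02% of those higher in ICC-MY, 7.5% of all genes with a promoter and 7.81% of all promoters. It stood in 2 of the 21 contractile genes (9.52%) and 1 of the 22 immediate early genes (4.55%). Whatever the call, a CArG box stood in 4 of 26 measured contractile genes with a promoter (15.4%) and 2 of 26 immediate early ones (7.69%). The cyclic AMP element stood in 4 of those 26 immediate early genes (15.4%). The CArG share was thus similar over the whole lists. A match is a description of the letters, not a bound site. The 250 bases before the start are shown for the 5 genes of these lists that held a CArG box and, like Myocd, were higher in ICC-DMP. Capitals mark that box, and in Ldb3 also a TGANTCA match.
Myl9 promoter (chr2:156775214-156775463, plus strand): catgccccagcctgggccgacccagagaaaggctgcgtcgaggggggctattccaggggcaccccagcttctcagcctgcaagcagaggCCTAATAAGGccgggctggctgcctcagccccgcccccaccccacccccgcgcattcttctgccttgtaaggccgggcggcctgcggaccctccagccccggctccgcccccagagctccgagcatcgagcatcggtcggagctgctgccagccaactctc
Vcl promoter (chr14:20929148-20929397, plus strand): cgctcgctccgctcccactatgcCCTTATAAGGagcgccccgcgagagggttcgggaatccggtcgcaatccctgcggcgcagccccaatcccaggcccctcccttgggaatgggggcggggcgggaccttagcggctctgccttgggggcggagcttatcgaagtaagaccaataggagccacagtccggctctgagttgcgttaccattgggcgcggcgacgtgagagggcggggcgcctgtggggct
Ldb3 promoter (chr14:34588608-34588857, minus strand): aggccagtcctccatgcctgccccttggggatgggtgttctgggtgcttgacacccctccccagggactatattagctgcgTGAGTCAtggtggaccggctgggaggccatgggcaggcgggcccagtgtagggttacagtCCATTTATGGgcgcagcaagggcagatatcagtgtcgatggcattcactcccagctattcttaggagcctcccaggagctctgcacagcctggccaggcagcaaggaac
Egr2 promoter (chr10:67537619-67537868, plus strand): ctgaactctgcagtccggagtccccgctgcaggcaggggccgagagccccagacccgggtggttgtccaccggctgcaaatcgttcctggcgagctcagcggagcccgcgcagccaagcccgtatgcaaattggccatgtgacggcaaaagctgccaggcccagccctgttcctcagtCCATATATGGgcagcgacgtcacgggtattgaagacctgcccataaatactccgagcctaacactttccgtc
Zfp36 promoter (chr7:28379229-28379478, minus strand): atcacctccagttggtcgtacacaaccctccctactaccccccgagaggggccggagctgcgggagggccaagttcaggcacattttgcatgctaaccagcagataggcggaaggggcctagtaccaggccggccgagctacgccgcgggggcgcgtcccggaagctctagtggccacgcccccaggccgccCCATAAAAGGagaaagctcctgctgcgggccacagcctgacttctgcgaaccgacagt
The contractile genes of the 5 are Myl9, the regulatory light chain of myosin (1.97, SE 0.28, adjusted p = 0.00461), Vcl, the focal adhesion gene of vinculin (1.21, SE 0.27, adjusted p = 0.0332), and Ldb3, a Z-disc gene (1.36, SE 0.18, adjusted p = 0.00345). The immediate early ones are the zinc finger gene Egr2 (1.48, SE 0.28, adjusted p = 0.0169) and Zfp36 (1.70, SE 0.22, adjusted p = 0.00303), whose product speeds the decay of inflammatory messages. Among these genes, 1 array decided the calls of Dusp1 (without ICC-DMP replicate 1, 2 or 3 or ICC-MY replicate 3, adjusted p up to 0.146), Vcl (without ICC-DMP replicate 1, 2 or 3 or ICC-MY replicate 2, adjusted p up to 0.13) and Egr2 (without ICC-DMP replicate 1 or 2, adjusted p up to 0.0879).

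**Figure D4:**
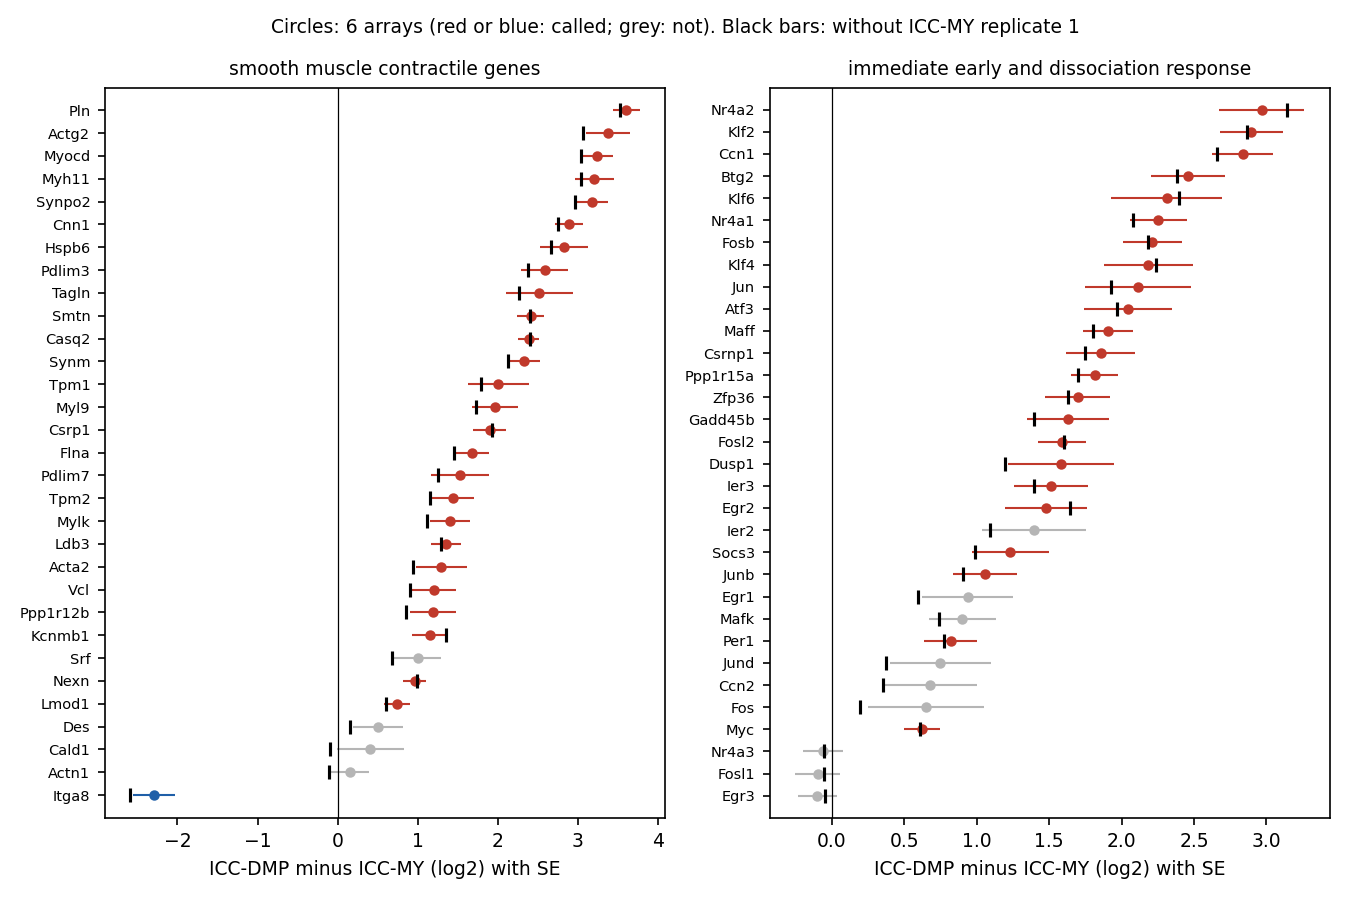
Log2 difference, ICC-DMP minus ICC-MY, with its standard error (x axis) for the 31 contractile genes (left) and the 32 immediate early genes (right), n = 3 arrays per class; red circles are called higher in ICC-DMP, the blue circle (Itga8) higher in ICC-MY and grey circles not called. Black bars give the difference without ICC-MY replicate 1, which for Actg2 is 3.06 in place of 3.38.

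Transcription factor genes set the classes apart in both directions. Of 36 Iroquois and other homeobox genes, 11 were higher in ICC-DMP and 4 in ICC-MY, around a median of -0.001. After Irx3 and Irx5 came the chromatin organizer gene Satb1 (2.77, SE 0.15, adjusted p = 7.27e-05) and the teashirt gene Tshz2 (2.38, SE 0.22, adjusted p = 0.000532). ICC-MY had the higher level of Zfhx3 (-3.24, SE 0.25, adjusted p = 0.000232), a large zinc finger homeobox gene, and of Prrx1, a limb and connective tissue mesenchyme gene, which read 3.99, 3.79 and 3.66 on the ICC-DMP arrays and 6.40, 6.45 and 5.42 on the ICC-MY arrays (-2.28, SE 0.28, adjusted p = 0.00222). Of 25 Hox genes, which encode position along the body axis, 6 were higher in ICC-DMP, 5 of them neighbours in the Hoxb cluster: Hoxb6 (2.14), Hoxb3 (1.91), Hoxb2 (1.87), Hoxb5 (1.59) and Hoxb4 (1.004). Hoxd8 was the 1 higher in ICC-MY, reading 5.21, 5.06 and 5.01 on the ICC-DMP arrays and 7.23, 7.76 and 7.93 on the ICC-MY arrays (-2.55, SE 0.20, adjusted p = 0.000252). For the Iroquois and other homeobox genes list, counts were 7 and 4 (ICC-DMP replicate 3 left out). For the Hox genes list, counts were 5 and 2 (ICC-MY replicate 2 left out) and 7 and 2 (with the block).

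Among 43 other transcription factors of mesenchyme, 6 were higher in ICC-DMP and 3 in ICC-MY. Sox11 (3.75, SE 0.21, adjusted p = 7.27e-05), a gene of immature neural and mesenchymal cells, and Foxf2 (3.53, SE 0.21, adjusted p = 9.99e-05), a gut mesenchyme factor gene and Hedgehog target, led the former. Foxf2 read 7.66, 7.70 and 7.51 on the ICC-DMP arrays and 4.57, 3.84 and 3.89 on the ICC-MY arrays. The forkhead gene Foxp2 (-1.81, SE 0.30, adjusted p = 0.00915) was higher in ICC-MY. Lost without 1 array was the call of Foxp2 (without ICC-DMP replicate 1, adjusted p up to 0.0515). For the other transcription factors of mesenchyme list, counts were 4 and 1 (ICC-DMP replicate 1 left out), 6 and 7 (ICC-MY replicate 1 left out) and 8 and 6 (with the block).

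Some glutamate receptor genes were higher in ICC-DMP. Of 16 ionotropic subunits measured, 3 were higher there and 0 in ICC-MY. Beside Gria1 these were the kainate subunit gene Grik4 (1.54, SE 0.12, adjusted p = 0.000256) and the NMDA subunit gene Grin3a (1.16, SE 0.17, adjusted p = 0.00506). Of 37 receptor genes for motor transmitters, 6 were higher in ICC-DMP and 2 in ICC-MY. Ramp1, whose product forms the receptor for calcitonin gene-related peptide, read 9.88, 10.14 and 10.25 on the ICC-DMP arrays and 5.50, 6.05 and 6.83 on the ICC-MY arrays (3.96, SE 0.32, adjusted p = 0.000301). The serotonin receptor gene Htr4 (2.74, SE 0.13, adjusted p = 4.02e-05), the neurotensin receptor gene Ntsr1 (1.72, SE 0.21, adjusted p = 0.0019) and the purinergic receptor gene P2ry14 (1.20) were higher in ICC-DMP too. Adcyap1r1, the receptor gene for the inhibitory peptide PACAP, was higher in ICC-MY, reading 6.66, 6.64 and 6.50 on the ICC-DMP arrays and 9.33, 10.24 and 10.34 on the ICC-MY arrays (-3.37, SE 0.27, adjusted p = 0.000283), as was Grpr, the receptor gene for gastrin-releasing peptide (-1.81, SE 0.16, adjusted p = 0.000443). Tacr1, the receptor gene for substance P, lay at 4.43, 4.43 and 4.15 on the ICC-DMP arrays and 4.30, 4.15 and 4.15 on the ICC-MY arrays, with a difference of 0.14 (adjusted p = 0.691).

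Nitric oxide relaxes gut muscle by way of soluble guanylate cyclase and cyclic GMP. Of 18 genes of that path, 4 were higher in ICC-DMP and 2 in ICC-MY. Both cyclase subunit genes were higher in ICC-DMP, Gucy1a1 at 2.14, SE 0.19, adjusted p = 0.000484 and Gucy1b1 at 2.12, SE 0.42, adjusted p = 0.0196, whereas Prkg1, the gene of the kinase they serve, was not called (0.14, adjusted p = 0.877). Gucy1a1 read 9.54, 9.46 and 9.34 on the ICC-DMP arrays and 6.99, 7.27 and 7.67 on the ICC-MY arrays. Phosphodiesterase genes, whose products break down cyclic nucleotides, were exchanged between the classes: of 17, 6 were higher in ICC-DMP and 4 in ICC-MY. Pde2a, which cyclic GMP stimulates, was higher in ICC-MY, reading 7.96, 8.09 and 7.87 on the ICC-DMP arrays and 10.91, 12.54 and 12.09 on the ICC-MY arrays (-3.88, SE 0.38, adjusted p = 0.000702). The cyclic GMP-inhibited genes Pde3a and Pde3b went opposite ways, Pde3a higher in ICC-MY (-2.70, SE 0.18, adjusted p = 0.000132) and Pde3b in ICC-DMP (2.82, SE 0.16, adjusted p = 8.42e-05). Pde7b (2.33, SE 0.26, adjusted p = 0.00123), Pde9a (1.58) and Pde4d (1.47) were also higher in ICC-DMP, and Pde8a (-1.45) in ICC-MY. The call that 1 array could end was that of Gucy1b1 (without ICC-DMP replicate 1 or 2 or ICC-MY replicate 3, adjusted p up to 0.1).

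Prostaglandin genes were higher in ICC-DMP for 5 of 13 and in ICC-MY for 1. Ptgs2, the gene of the inducible cyclooxygenase, read 8.63, 8.70 and 8.08 on the ICC-DMP arrays and 5.46, 5.95 and 4.28 on the ICC-MY arrays (3.24, SE 0.41, adjusted p = 0.00249). The receptor genes Ptger3 (3.23, SE 0.21, adjusted p = 0.000123), Ptger2 (3.04, SE 0.16, adjusted p = 5.96e-05), Ptgir (2.31, SE 0.16, adjusted p = 0.000156) and Ptger4 (1.73, SE 0.21, adjusted p = 0.00216) were higher alongside it, and Ptger1 was not called (-0.21). Of 6 endothelin genes, Edn3 and its receptor gene Ednrb (-1.86, SE 0.19, adjusted p = 0.000896) were both higher in ICC-MY, while 2 others were higher in ICC-DMP, the ligand gene Edn2 (0.75, SE 0.17, adjusted p = 0.0309) and the converting enzyme gene Ece1 (1.41, SE 0.28, adjusted p = 0.0204). The protein kinase C list, which also holds the protein kinase D gene Prkd1, split by member. Of its 13 genes, 1, Prkcq, was higher in ICC-MY. The 3 higher in ICC-DMP included Prkd1 (2.83, SE 0.12, adjusted p = 3.44e-05) and Prkca (1.67, SE 0.18, adjusted p = 0.000982). Leaving out 1 array ended the calls of Edn2 (without ICC-DMP replicate 1, 2 or 3 or ICC-MY replicate 2, adjusted p up to 0.141) and Ece1 (without ICC-DMP replicate 1, 2 or 3, adjusted p up to 0.0936). For the prostaglandin genes list, counts were 5 and 0 (ICC-DMP replicate 1 or 2 or ICC-MY replicate 2 left out). For the endothelin genes list, counts were 0 and 2 (ICC-DMP replicate 1, 2 or 3 left out) and 1 and 2 (ICC-MY replicate 2 left out). For the protein kinase C family list, counts were 2 and 2 (ICC-MY replicate 3 left out).

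Of 43 genes of G protein signalling, 12 were higher in ICC-DMP and 2 in ICC-MY (median 0.34). Gna14, a Gq-type alpha subunit gene, read 8.55, 8.74 and 8.47 on the ICC-DMP arrays and 3.98, 4.59 and 4.68 on the ICC-MY arrays (4.17, SE 0.21, adjusted p = 5.77e-05). Regulators that shorten G protein signals followed: Rgs9 (3.59, SE 0.14, adjusted p = 2.38e-05), Rgs1 (3.32, SE 0.43, adjusted p = 0.00274) and Rgs2 (2.89, SE 0.29, adjusted p = 0.000743). Adenylyl cyclase genes divided, with Adcy7 (2.88, SE 0.15, adjusted p = 5.96e-05) and Adcy3 (2.58) higher in ICC-DMP and Adcy1 (-2.07, SE 0.24, adjusted p = 0.00163) in ICC-MY. Of 16 genes of lysophospholipid signalling, 3 were higher in ICC-DMP and 0 in ICC-MY, led by the lipid phosphatase gene Plpp1 (1.71, SE 0.27, adjusted p = 0.00723) and the receptor gene Lpar6 (1.26, SE 0.18, adjusted p = 0.00461). For the RGS and G protein signalling list, counts were 11 and 1 (ICC-DMP replicate 1 or 2 left out), 12 and 5 (ICC-MY replicate 1 left out) and 12 and 1 (ICC-MY replicate 3 left out). For the sphingosine phosphate and lysophospholipid signalling list, counts were 3 and 2 (ICC-MY replicate 1 left out) and 3 and 1 (with the block).

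A T-type calcium channel gene was higher in ICC-MY, and several calcium store genes were higher in ICC-DMP. Of 20 voltage-gated calcium channel genes, 3 were higher in ICC-MY and 1 in ICC-DMP. Cacna1h read 4.80, 4.63 and 5.37 on the ICC-DMP arrays and 7.59, 8.23 and 8.96 on the ICC-MY arrays, and the beta subunit gene Cacnb4 differed by -2.02, SE 0.17, adjusted p = 0.000357. Of 33 genes for calcium stores, entry and extrusion, 9 were higher in ICC-DMP and 4 in ICC-MY. The ryanodine receptor genes Ryr2 (2.40, SE 0.22, adjusted p = 0.000515) and Ryr3 (2.26, SE 0.14, adjusted p = 0.000112), the sodium-calcium exchanger gene Slc8a3 (2.40, SE 0.16, adjusted p = 0.000128) and the cation channel genes Trpc4 (2.60, SE 0.24, adjusted p = 0.000502) and Trpc6 (2.07) were higher in ICC-DMP. The plasma membrane calcium pump genes Atp2b2 and Atp2b1 (-2.03, SE 0.28, adjusted p = 0.0039) were higher in ICC-MY, Atp2b2 reading 3.97, 3.23 and 3.59 on the ICC-DMP arrays and 7.47, 7.87 and 7.98 on the ICC-MY arrays. For the voltage-gated calcium channels list, counts were 0 and 2 (ICC-DMP replicate 1 or 2 or ICC-MY replicate 2 or 3 left out) and 0 and 3 (ICC-DMP replicate 3 left out). For the calcium stores, entry and extrusion list, counts were 7 and 2 (ICC-DMP replicate 1 or 2 left out).

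Of 54 potassium channel genes, 6 were higher in ICC-DMP and 4 in ICC-MY, with a median of 0.014. Kcnq5, the gene of an M-type channel, read 9.25, 9.02 and 9.88 on the ICC-DMP arrays and 5.10, 4.85 and 5.30 on the ICC-MY arrays (4.30, SE 0.24, adjusted p = 7.42e-05), and Kcnk3 read 5.56, 5.88 and 5.69 on the ICC-DMP arrays and 9.15, 10.43 and 10.54 on the ICC-MY arrays (-4.33, SE 0.36, adjusted p = 0.000329). The 2 dimmer probe sets of Kcnk3 were not called (-0.58 and -0.65). Kcnf1 (2.35, SE 0.24, adjusted p = 0.000868) and Kcnmb4 (2.17, SE 0.21, adjusted p = 0.000665) were also higher in ICC-DMP, and Abcc8, which encodes the sulfonylurea receptor of ATP-sensitive channels, in ICC-MY (-2.82, SE 0.22, adjusted p = 0.000238). Sodium, chloride and pacemaker channel genes were called in ICC-MY for 3 of 26 and in ICC-DMP for 0. Slc12a2, which loads cells with the chloride that Ano1 lets out, read 10.07, 10.33 and 9.95 on the ICC-DMP arrays and 11.68, 13.30 and 12.68 on the ICC-MY arrays, with no overlap. Slc4a4, the sodium bicarbonate cotransporter gene, differed by -3.29, SE 0.30, adjusted p = 0.000496, and Scn2b, a sodium channel beta subunit gene, by -1.62, SE 0.16, adjusted p = 0.000829. For the potassium channels list, counts were 5 and 2 (ICC-DMP replicate 2 left out). For the sodium, chloride and pacemaker channels list, counts were 0 and 5 (ICC-MY replicate 1 left out).

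Adhesion genes were exchanged between the classes within families. Of 45 neural and immunoglobulin-type adhesion genes, 8 were higher in ICC-DMP and 6 in ICC-MY. Chl1 (4.19, SE 0.22, adjusted p = 6.44e-05), a relative of the axonal molecule L1, Ncam1, Cadm1 (3.99, SE 0.21, adjusted p = 6.44e-05), a synaptic adhesion gene, and Cntn1 (3.23, SE 0.30, adjusted p = 0.000571), the contactin gene, were on the ICC-DMP side. Chl1 read 11.53, 12.04 and 11.59 on the ICC-DMP arrays and 7.44, 7.91 and 7.22 on the ICC-MY arrays. Vcam1 (-5.03, SE 0.32, adjusted p = 0.000118), Nrcam (-3.55, SE 0.24, adjusted p = 0.000136), which like Chl1 belongs to the L1 family, and Negr1 (-2.41, SE 0.25, adjusted p = 0.000926) were on the ICC-MY side. Vcam1 read 4.77, 4.64 and 4.20 on the ICC-DMP arrays and 8.92, 10.18 and 9.59 on the ICC-MY arrays, so every ICC-DMP array lay below every ICC-MY array. For the neural and immunoglobulin-type adhesion list, counts were 7 and 3 (ICC-DMP replicate 1 left out), 8 and 3 (ICC-DMP replicate 2 left out) and 13 and 7 (with the block).

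Desmosome genes divided in the same manner. Of 27 cadherin and desmosome genes, 6 were higher in ICC-DMP and 3 in ICC-MY. While Dsp and the desmocollin gene Dsc2 (-1.61, SE 0.19, adjusted p = 0.0016) were higher in ICC-MY, the plakophilin gene Pkp2 (3.28, SE 0.13, adjusted p = 2.54e-05), the desmoglein gene Dsg2 (3.01, SE 0.16, adjusted p = 6.89e-05) and Pkp4 (1.96, SE 0.18, adjusted p = 0.000548) were higher in ICC-DMP. Pkp2 read 7.43, 7.50 and 7.54 on the ICC-DMP arrays and 4.11, 4.14 and 4.38 on the ICC-MY arrays, without overlap. The cadherin genes Cdh13 (2.75, SE 0.16, adjusted p = 7.42e-05) and Cdh11 (1.66) were higher in ICC-DMP. Of 13 gap junction genes, 2 were higher in ICC-DMP and 0 in ICC-MY; the connexin gene Gja3 led with 2.14, SE 0.20, adjusted p = 0.000548, and Gjc1, the connexin 45 gene, was not called (0.68, adjusted p = 0.229). Of 21 protocadherin genes, 6 were higher in ICC-DMP, with Pcdh7 first (2.57, SE 0.22, adjusted p = 0.000377), and 1, Pcdh17, was higher in ICC-MY, reading 7.11, 6.93 and 6.45 on the ICC-DMP arrays and 11.50, 12.29 and 11.999 on the ICC-MY arrays. For the gap junctions list, counts were 1 and 0 (ICC-DMP replicate 1, 2 or 3 or ICC-MY replicate 2 or 3 left out). For the protocadherins list, counts were 1 and 1 (ICC-DMP replicate 1 left out), 2 and 1 (ICC-DMP replicate 2 or 3 or ICC-MY replicate 3 left out), 5 and 3 (ICC-MY replicate 1 left out) and 6 and 2 (with the block).

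Guidance molecules were called in both directions: of 58 genes, 11 were higher in ICC-DMP and 8 in ICC-MY. The ephrin genes stood on opposite sides, Efnb2 at 4.16, SE 0.13, adjusted p = 2.34e-05 and Efna5 at -3.25, SE 0.21, adjusted p = 0.000126. Efnb2 read 11.12, 11.17 and 11.06 on the ICC-DMP arrays and 6.79, 7.06 and 7.03 on the ICC-MY arrays, and Efna5 read 7.86, 7.82 and 7.37 on the ICC-DMP arrays and 10.67, 11.28 and 10.86 on the ICC-MY arrays. Secreted semaphorin genes, whose products repel or attract growing axons, were higher in ICC-DMP: Sema3a (2.40, SE 0.16, adjusted p = 0.000131), Sema3c (2.37), Sema3e (1.97) and Sema3b (1.87). Of 23 neurotrophic genes, 4 were higher in ICC-DMP and 4 in ICC-MY. The coreceptor gene Gfra1 (1.89, SE 0.21, adjusted p = 0.00127) and the growth factor gene Ptn (2.61, SE 0.23, adjusted p = 0.000473) were higher in ICC-DMP, while the receptor gene Ret (-1.46, SE 0.16, adjusted p = 0.00109) and the ligand gene Artn (-2.21, SE 0.22, adjusted p = 0.000703) were higher in ICC-MY. Kitl, the gene of the ligand that Kit needs, was higher in ICC-DMP (1.23, SE 0.23, adjusted p = 0.0163). Of 37 genes for synaptic vesicles and exocytosis, 3 were higher in ICC-DMP, led by the release scaffold gene Rims1 (3.40, SE 0.15, adjusted p = 3.44e-05), and 6 in ICC-MY, led by the synaptotagmin gene Syt4 (-3.54, SE 0.37, adjusted p = 0.000987). The call that rested on 1 array was that of Kitl (without ICC-DMP replicate 1 or 2 or ICC-MY replicate 3, adjusted p up to 0.0842). For the axon guidance list, counts were 8 and 4 (ICC-DMP replicate 1 left out), 9 and 5 (ICC-DMP replicate 2 or 3 left out), 12 and 15 (ICC-MY replicate 1 left out) and 11 and 5 (ICC-MY replicate 2 left out). For the neurotrophic factors and receptors list, counts were 3 and 2 (ICC-DMP replicate 1 or ICC-MY replicate 3 left out), 2 and 2 (ICC-DMP replicate 2 left out) and 4 and 2 (ICC-MY replicate 2 left out).

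Matrix genes called higher in ICC-DMP included 3 collagen IV chains. Of 35 collagen chain genes, 6 were higher in ICC-DMP and 1 in ICC-MY. The chains Col4a3 (2.92, SE 0.23, adjusted p = 0.000251), Col4a4 (3.14, SE 0.17, adjusted p = 6.44e-05) and Col4a5 (3.56, SE 0.18, adjusted p = 5.96e-05), which assemble into 1 network of specialised basement membranes, were higher in ICC-DMP. Col4a5 read 11.02, 11.37 and 10.87 on the ICC-DMP arrays and 7.32, 7.55 and 7.71 on the ICC-MY arrays. Col9a1, a chain best known from cartilage, differed by 3.91, SE 0.21, adjusted p = 6.69e-05, and Col13a1, a transmembrane collagen of muscle-nerve junctions, by -2.88, SE 0.32, adjusted p = 0.00127 towards ICC-MY. Of 20 laminin and nidogen genes, 2 were higher in ICC-DMP, among them Lama2 (1.63, SE 0.20, adjusted p = 0.00212), and 2 in ICC-MY, among them Lamb3 (-1.04, SE 0.17, adjusted p = 0.00847). Of 21 integrin-related genes, 3 were higher in ICC-DMP, Itgb3 (1.63, SE 0.21, adjusted p = 0.00235) among them, and 3 in ICC-MY, the talin gene Tln2 (-2.61, SE 0.28, adjusted p = 0.000994) among them. Of 44 genes of thrombospondins, hyaluronan and matrix proteases, 8 were higher in ICC-DMP and 4 in ICC-MY. Thbs4 read 12.83, 12.98 and 12.82 on the ICC-DMP arrays and 9.51, 10.24 and 10.73 on the ICC-MY arrays; the spondin gene Spon2 (2.75, SE 0.26, adjusted p = 0.000622) and the protease genes Mmp2 (2.18, SE 0.30, adjusted p = 0.00399) and Adamts1 (2.12) were higher in ICC-DMP, and the elastic fibre genes Fbn2 (-2.05, SE 0.31, adjusted p = 0.00595) and Eln (-1.51) in ICC-MY. For the collagen chains list, counts were 8 and 5 (ICC-MY replicate 1 left out) and 9 and 3 (with the block). For the laminins and nidogens list, counts were 1 and 2 (ICC-DMP replicate 1 left out), 1 and 1 (ICC-DMP replicate 2 or 3 left out), 3 and 1 (ICC-MY replicate 2 left out) and 2 and 1 (ICC-MY replicate 3 left out). For the integrins list, counts were 4 and 5 (ICC-MY replicate 1 left out) and 5 and 6 (with the block). For the thrombospondins, hyaluronan and matrix proteases list, counts were 4 and 4 (ICC-DMP replicate 1, 2 or 3 left out) and 5 and 4 (ICC-MY replicate 2 left out).

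Counts of energy genes rested on ICC-MY replicate 1. Of 52 respiratory chain genes, 1 was higher in ICC-MY and 0 in ICC-DMP, with a median of -0.40. Without that array, 29 were higher in ICC-MY and 0 in ICC-DMP, with a median of -0.78; under quantile normalization 27 were. The called gene on 6 arrays was Atp5g1, an ATP synthase subunit gene, reading 8.19, 8.09 and 7.84 on the ICC-DMP arrays and 8.67, 9.92 and 9.64 on the ICC-MY arrays (-1.37, SE 0.31, adjusted p = 0.0361). Of 27 glycolysis and hypoxia genes, 4 were higher in ICC-DMP and 2 in ICC-MY. Hexokinase genes went opposite ways: Hk2, an inducible one, was higher in ICC-DMP (3.18, SE 0.20, adjusted p = 0.000114) and Hk1 in ICC-MY (-1.11, SE 0.27, adjusted p = 0.0448). Hk2 read 8.32, 7.99 and 7.65 on the ICC-DMP arrays and 4.99, 4.82 and 4.63 on the ICC-MY arrays. Eno3 (2.20, SE 0.26, adjusted p = 0.0018) and Aldoc (2.07, SE 0.17, adjusted p = 0.00029), isoform genes of enolase and aldolase, were higher in ICC-DMP, and Ppargc1a, the coactivator gene of mitochondrial biogenesis, in ICC-MY (-1.56, SE 0.29, adjusted p = 0.0149). In cholesterol and fatty acid synthesis 1 of 26 genes, Mvd (-0.97, SE 0.23, adjusted p = 0.0442), was higher in ICC-MY, and 4 were without that array. Of 32 proliferation genes, Ccnd1, the cyclin D1 gene, was higher in ICC-DMP (2.86, SE 0.31, adjusted p = 0.00104) and 1, Cenpe (-0.69, SE 0.17, adjusted p = 0.0489), in ICC-MY, where 5 were without that array. Among 11 annexin genes 1, Anxa3, was called (-1.26, SE 0.21, adjusted p = 0.00847), higher in ICC-MY. With 1 array left out, calls were lost for Atp5g1 (without ICC-DMP replicate 1, 2 or 3 or ICC-MY replicate 2 or 3, adjusted p up to 0.13), Hk1 (without ICC-DMP replicate 1, 2 or 3 or ICC-MY replicate 2 or 3, adjusted p up to 0.176), Ppargc1a (without ICC-DMP replicate 1 or 2, adjusted p up to 0.0833), Mvd (without ICC-DMP replicate 1, 2 or 3 or ICC-MY replicate 2 or 3, adjusted p up to 0.172), Cenpe (without ICC-DMP replicate 1, 2 or 3 or ICC-MY replicate 2 or 3, adjusted p up to 0.159) and Anxa3 (without ICC-DMP replicate 1, adjusted p up to 0.0532). For the mitochondrial respiratory chain list, counts were 0 and 0 (ICC-DMP replicate 1, 2 or 3 or ICC-MY replicate 2 or 3 left out), 0 and 29 (ICC-MY replicate 1 left out) and 0 and 3 (with the block). For the glycolysis and hypoxia list, counts were 4 and 0 (ICC-DMP replicate 1 or 2 left out), 4 and 1 (ICC-DMP replicate 3 or ICC-MY replicate 2 or 3 left out), 4 and 11 (ICC-MY replicate 1 left out) and 4 and 5 (with the block). For the cholesterol and fatty acid synthesis list, counts were 0 and 0 (ICC-DMP replicate 1, 2 or 3 or ICC-MY replicate 3 left out), 1 and 4 (ICC-MY replicate 1 left out), 1 and 0 (ICC-MY replicate 2 left out) and 2 and 2 (with the block). For the proliferation list, counts were 1 and 0 (ICC-DMP replicate 1, 2 or 3 or ICC-MY replicate 2 or 3 left out), 2 and 5 (ICC-MY replicate 1 left out) and 2 and 1 (with the block). For the annexins list, counts were 0 and 0 (ICC-DMP replicate 1 left out), 0 and 2 (ICC-MY replicate 1 left out) and 0 and 2 (with the block).

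**Figure D5:**
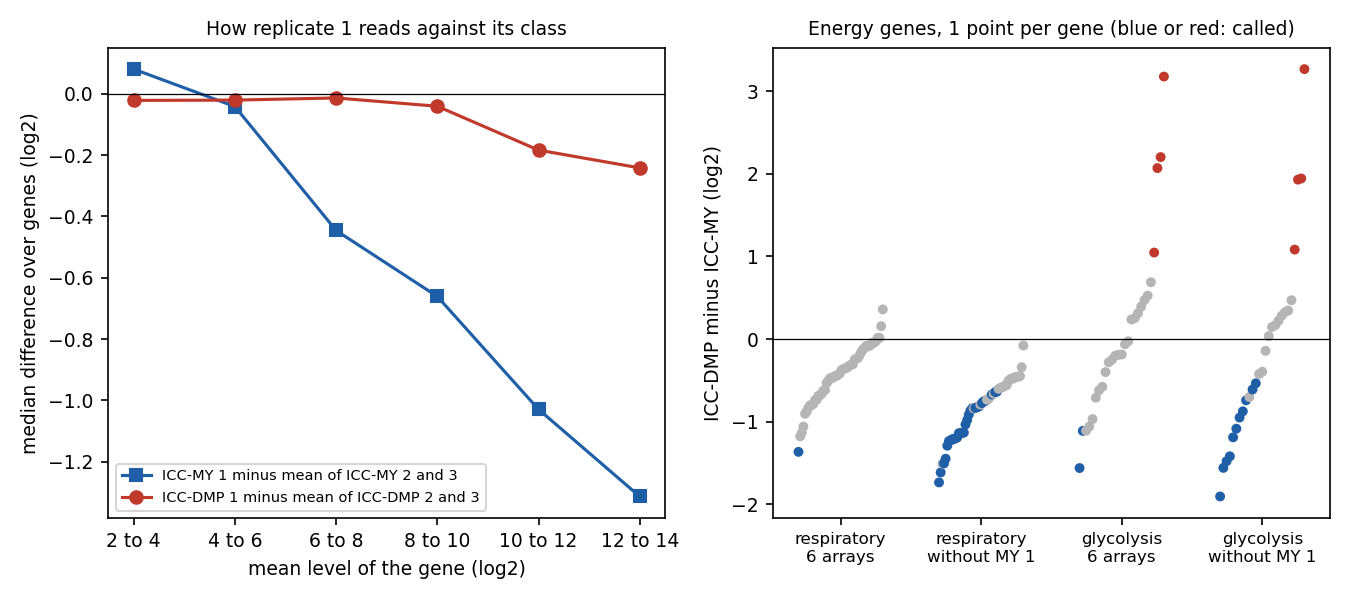
Left, the median over genes of the log2 difference between replicate 1 and the mean of replicates 2 and 3 of its class (y axis), by the mean log2 level of the gene (x axis), which for ICC-MY falls to -1.31 at levels of 12 to 14. Right, the log2 difference, ICC-DMP minus ICC-MY, of each of the 52 respiratory chain and 27 glycolysis genes with all 6 arrays and without ICC-MY replicate 1; blue (higher in ICC-MY) and red (higher in ICC-DMP) mark called genes.

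Most markers of other cell types that the samples could hold were not called, with exceptions. Of 25 T-cell and lymphocyte genes, 1, Icos, was called; Cd3e, which every T cell needs, read 5.18, 5.19 and 4.94 on the ICC-DMP arrays and 6.23, 5.05 and 5.25 on the ICC-MY arrays and Cd3g 2.51, 2.43 and 2.57 on the ICC-DMP arrays and 2.81, 2.72 and 2.51 on the ICC-MY arrays. The mean level of the list, Icos included, ran from 3.75 to 3.79 on the ICC-DMP arrays and from 4.04 to 4.24 on the ICC-MY arrays. Its median level, which 1 gene moves less, ran from 3.44 to 3.47 on the ICC-DMP arrays and from 3.52 to 3.71 on the ICC-MY arrays. Of 30 enteric neuron markers, 5 were higher in ICC-MY and 0 in ICC-DMP; they included Syt4, Ret and Elavl3 (-1.32, SE 0.12, adjusted p = 0.000571), while the defining genes Snap25 and Elavl4 stayed below 5 on every array. Of 12 glia and Schwann cell markers, 4 were higher in ICC-DMP and 1 in ICC-MY, with Sox10 at 6.18, 6.10 and 6.27 on the ICC-DMP arrays and 6.69, 5.91 and 6.19 on the ICC-MY arrays. The most changed of them, Cryab, is also a muscle chaperone gene. Fabp7 (1.56, SE 0.33, adjusted p = 0.0245), Cdh19 (1.04, SE 0.18, adjusted p = 0.0105) and Erbb3 (0.91, SE 0.15, adjusted p = 0.00857) were higher in ICC-DMP too. In all, 41.7% of the 12 were called, against 9.69% of all genes. Of 20 macrophage markers, 1, Pf4, was higher in ICC-MY (-0.95, SE 0.21, adjusted p = 0.0326), and Csf1r read 5.57, 5.86 and 5.67 on the ICC-DMP arrays and 6.83, 6.04 and 6.28 on the ICC-MY arrays. Of 14 mast cell markers none was called by limma on the 6 arrays without the block, with 1 at an unadjusted p under 0.05. Differences in the list ran from -1.66 to 0.12. Every ICC-MY array lay above every ICC-DMP array for 3 of the 14, and the reverse held for 0. Over all genes those shares were 11.7% and 13.9%. Cpa3 read 3.23, 3.35 and 3.30 on the ICC-DMP arrays and 4.31, 4.51 and 3.49 on the ICC-MY arrays. Its difference was -0.815, SE 0.26, adjusted p = 0.115, and adjusted p = 0.0479 with the block. Gata2, a transcription factor gene that mast cells need, was at the upper end of the list (0.12). Gata2 read 4.66, 4.78 and 4.99 on the ICC-DMP arrays and 4.64, 4.98 and 4.44 on the ICC-MY arrays. Among these genes, 1 array decided the calls of Pf4 (without ICC-DMP replicate 1, 2 or 3 or ICC-MY replicate 2 or 3, adjusted p up to 0.122), Fabp7 (without ICC-DMP replicate 2 or 3 or ICC-MY replicate 2, adjusted p up to 0.106) and Erbb3 (without ICC-DMP replicate 2, adjusted p up to 0.053). For the T-cell and lymphocyte genes list, counts were 0 and 2 (ICC-MY replicate 3 left out). For the enteric neuron markers list, counts were 0 and 3 (ICC-DMP replicate 1, 2 or 3 left out). For the enteric glia and Schwann cell markers list, counts were 4 and 0 (ICC-DMP replicate 1 or ICC-MY replicate 3 left out), 2 and 0 (ICC-DMP replicate 2 left out) and 3 and 0 (ICC-DMP replicate 3 or ICC-MY replicate 2 left out). For the macrophage markers list, counts were 0 and 0 (ICC-DMP replicate 1, 2 or 3 or ICC-MY replicate 3 left out) and 0 and 2 (with the block). For the mast cell markers list, counts were 0 and 2 (ICC-MY replicate 3 left out) and 0 and 2 (with the block).

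Vessel markers were called mostly towards ICC-MY. Of 20 endothelial markers, 6 were higher in ICC-MY, Eng (-2.11, SE 0.26, adjusted p = 0.00228), Esam (-2.07, SE 0.35, adjusted p = 0.0096) and Lyve1 (-1.14) among them, and 2 in ICC-DMP, Plvap (2.97, SE 0.20, adjusted p = 0.000138) and Ramp2 (0.98). The mean level of the list ran from 4.26 to 4.43 on the ICC-DMP arrays and from 4.69 to 5.31 on the ICC-MY arrays, and Pecam1, which defines endothelium, read 2.90, 2.96 and 3.37 on the ICC-DMP arrays and 3.23, 3.73 and 3.21 on the ICC-MY arrays. Of 11 pericyte markers, 2 were higher in ICC-MY, Pdgfrb and Notch3, and 0 in ICC-DMP. The part of vessel cells in the genes higher in ICC-MY was not tested. Of 19 fibroblast and PDGFRA cell markers, 2 were higher in ICC-DMP, Pdgfra and Dpt (1.43, SE 0.32, adjusted p = 0.0318), and 0 in ICC-MY. That share, 10.5%, was near the 9.69% of all genes. Dcn read 11.66, 11.92 and 11.28 on the ICC-DMP arrays and 10.51, 11.84 and 11.25 on the ICC-MY arrays. Of 14 mesothelial markers, 2 were higher in ICC-DMP, Gpm6a and Upk3b, and 1, Bnc1 (-0.90, SE 0.15, adjusted p = 0.0085), in ICC-MY. Msln read below 4 on every array. Of 15 epithelial markers, 1, Krt20 (0.69, SE 0.14, adjusted p = 0.025), was higher in ICC-DMP and 1, Tff3 (-1.10, SE 0.21, adjusted p = 0.0155), in ICC-MY. In all, 13.3% of them were called, against 9.69% of all genes. Epcam read 7.25, 6.38 and 6.52 on the ICC-DMP arrays and 8.73, 6.63 and 6.93 on the ICC-MY arrays. Of 5 red blood cell genes none was called by limma, with 0 at an unadjusted p under 0.05. Lost without 1 array were the calls of Pdgfrb (without ICC-DMP replicate 1 or 2 or ICC-MY replicate 2 or 3, adjusted p up to 0.135), Dpt (without ICC-DMP replicate 1 or 2 or ICC-MY replicate 3, adjusted p up to 0.132), Gpm6a (without ICC-DMP replicate 1 or 2 or ICC-MY replicate 3, adjusted p up to 0.134), Upk3b (without ICC-DMP replicate 1, 2 or 3 or ICC-MY replicate 2 or 3, adjusted p up to 0.106), Krt20 (without ICC-DMP replicate 1, 2 or 3 or ICC-MY replicate 2 or 3, adjusted p up to 0.118) and Tff3 (without ICC-DMP replicate 1 or 2, adjusted p up to 0.081). For the endothelial markers list, counts were 2 and 3 (ICC-DMP replicate 1, 2 or 3 or ICC-MY replicate 2 left out), 2 and 10 (ICC-MY replicate 3 left out) and 2 and 10 (with the block). For the pericyte markers list, counts were 0 and 1 (ICC-DMP replicate 1 or 2 or ICC-MY replicate 3 left out), 2 and 1 (ICC-MY replicate 2 left out) and 1 and 2 (with the block). For the fibroblast and PDGFRA cell markers list, counts were 1 and 0 (ICC-DMP replicate 1 or 2 left out), 4 and 1 (ICC-MY replicate 1 left out), 4 and 0 (ICC-MY replicate 2 left out), 2 and 1 (ICC-MY replicate 3 left out) and 5 and 2 (with the block). For the mesothelial markers list, counts were 0 and 1 (ICC-DMP replicate 1 or 2 or ICC-MY replicate 3 left out), 3 and 2 (ICC-MY replicate 1 left out), 1 and 1 (ICC-MY replicate 2 left out) and 4 and 1 (with the block). For the intestinal epithelial markers list, counts were 0 and 0 (ICC-DMP replicate 1 or 2 left out), 0 and 1 (ICC-DMP replicate 3 or ICC-MY replicate 2 or 3 left out) and 2 and 1 (with the block).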

How the data were processed

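Total RNA of 8 samples, purified with Trizol and columns per the labels' protocols, was amplified in 2 rounds from about 50 ng, labelled with biotin and hybridised to single-channel oligonucleotide arrays. On a log2 scale, the deposited file gives 1 value for each probe set in each sample. The submitters' processing notes name RMA and limma but neither a version nor a role; no source used here says whether the arrays were normalized together, and no further normalization was applied. A second amplification with random primers shortens RNA. Bright genes read low on ICC-MY replicate 1, the array with a narrow range, so with it their differences read further towards ICC-DMP. Among genes at a mean level of 10 to 12, the median difference was 0.249 with that array and -0.079 without it. Array data carry no read depth; the number of arrays limits the precision.

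Of 45101 probe sets, 64 controls were left out. Of the remaining 45037, the platform annotation gave 1 gene to 34945 and several to 932, and 9160 are unnamed here; 34741 matched RefSeq (GRCm38.p6) by Entrez identifier, with 0 symbols updated. For each of 18193 genes the brightest probe set by its 8-array mean was kept among those naming only that gene; 9010 genes had more than 1. Of 152 called named genes with several, 95 had another probe set called the same way and 1, Mbp, one called the opposite way. Groups came from sample titles. The 6 ICC arrays were fitted by lmFit, contrasts.fit and eBayes of limma 3.58.1 in R 4.3.3 (residual degrees of freedom 4, prior 3.26), tested on simulated data first. The 2-sided moderated test was adjusted by Benjamini-Hochberg over all 18193 genes, and a gene was called at an adjusted p under 0.05. Errors are standard errors from that fit. Same-numbered samples of the classes deviated together from their class means (correlations 0.289, 0.5 and 0.387), so the numbers were taken to pair the samples. The main fit, with its standard errors and adjusted p, and the fits with 1 array left out do not use that pairing. With the block 2429 genes were called in place of 1763. That fit is given where it changes a call or a count by over 1.5 times.

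The members, the 54 gene lists (1351 distinct genes measured) and the tests were chosen with earlier results of these data known. The genes named first were the 20 largest called differences per direction with non-overlapping arrays and without RIKEN, Gm, LOC, EST or clone names; then the singled-out markers and all ICC markers; then, from each remaining list, up to 5 called members or else its 2 most abundant; further members are given where a family is described. Alternatives were all 8 arrays in 1 fit, the replicate block, leaving out each array, quantile normalization, median centring, removal of dim genes (mean under 6 in both classes), averaged probe sets, every probe set, array weights, a trended robust prior and limma's treat against 2-fold.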

Additional observations from a re-analysis of the deposited data

How the results depend on the processing

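The count of genes that differed, 1763, became 2646 under quantile normalization, 2757 with array weights, 3640 with every probe set counted, 451 with treat against 2-fold, and 1033 to 2630 when 1 array was left out. Genes higher in ICC-DMP numbered 2449 with every probe set, 309 with treat, and 703 to 1228 with 1 array left out. Genes higher in ICC-MY numbered 1315 under quantile normalization, 1334 with array weights, 1191 with every probe set, 142 with treat, and 330 to 1402 with 1 array left out, the highest without ICC-MY replicate 1. By construction treat sets a higher bar and every probe set counts more features; for the other settings, leaving out an array included, the cause was not tested.

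The Ano1 difference was -0.249 in quantile-normalized arrays, -0.318 as the mean of its probe sets, -0.263 with array weights and -0.366 to 0.31 with 1 array left out. Averaged over probe sets, Mbp turned to 0.125 and Slc4a1 to -0.012. With 1 array left out, Epb42 ran from -0.045 to 0.16, Gata2 from -0.002 to 0.27, Gja1 from -0.646 to 0.192 and Slc4a1 from -0.094 to 0.172. Except for Mbp, none of these genes was called on the 6 arrays. Before further family members were added, 228 genes were named, and 220 of them were called. Of the 220, 139 kept their call under each alternative fitted gene by gene that tested them, and 6 of these were among the genes removed as dim. The replicate block ended the call of Numb (0.62, adjusted p = 0.0514) and added Elovl6 (-1.27, adjusted p = 0.0235). Among the 228 it changed no other call. Elsewhere the block added calls: contractile genes higher in ICC-DMP became 27 in place of 26, and immediate early genes 28 in place of 23.

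With 3 arrays a class, 1 of them with a compressed range, the precision is limited. Among dim genes, at a mean level of 2 to 4, 51 were called higher in ICC-DMP and 44 in ICC-MY of 6019.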

Other observations

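Some genes that lie next to each other in the genome were called together. Among 14176 pairs of adjacent measured genes in RefSeq order (GRCm38.p6), both were called in 240, in the same direction in 176 (117 higher in ICC-DMP, 59 in ICC-MY) and in opposite directions in 64. Taken singly, 9.69% of all genes were called. The number of such pairs among genes placed at random was not worked out, so the count alone does not show clustering. Pairs higher in ICC-DMP included Irx3 and Irx5, the guanylate cyclase genes Gucy1a1 and Gucy1b1, the collagen genes Col4a3 and Col4a4, the forkhead genes Foxq1 and Foxf2, Kcnq5 and Rims1, Grem1 and its neighbour Fmn1, and the eicosanoid genes Pla2g4a and Ptgs2. Rit2 and Syt4 were a pair higher in ICC-MY. The carbonic anhydrase genes Car2 and Car3 were adjacent and called in opposite directions. These pairs were picked after their values were seen, and no test of adjacency was made.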
